A study of Mus musculus with 18 samples.

Results

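The 10 genes described here handle haem and iron: Alas2, Slc4a1 and Hba-a2 from red blood cells, Hmox1, Blvrb and Hpx from the capture and breakdown of haem, and Slc40a1, Slc11a1, Tfrc and Fth1 from the transport and storage of iron. They are 10 of the 18193 genes that had a probe set with a single gene symbol on the array. They were chosen from a list drawn up with results of the MEKi/CD40 and control tumours known. The members' values in that contrast are therefore given below as a description with no test, while other genes are given with their adjusted p. The lists of other genes were also chosen with earlier results of these data known. Their adjusted p is therefore not independent of that choice. For each gene the brightest such probe set by mean over all 18 arrays was read, and probe sets marked _x_at, whose probes can bind several transcripts, were passed over where another existed. Every value is a deposited log2 signal, so a difference of 1 is a doubling.

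The study asked how a MEK inhibitor and an agonist antibody against the immune receptor CD40 act together on tumours. MC38, a mouse colon carcinoma line, was grown as a flank tumour in C57BL/6-Ly5.1 mice aged 6 to 12 weeks after subcutaneous injection in Matrigel. RNA of unsorted tumour pieces was taken from each mouse on day 22. The MEKi/CD40 group (n = 4) received the MEK inhibitor GDC-0623 daily at 30 mg/kg with agonist anti-CD40 antibody, the MEKi group (n = 5) the same inhibitor with control antibody, the anti-CD40 group (n = 4) vehicle with anti-CD40 antibody, and the control group (n = 5) vehicle with control antibody. Antibodies were given on days 3, 5 and 7 of treatment and once more on the eve of tumour collection. All tumours come from this 1 transplanted line in its syngeneic host, and a piece of tumour holds tumour cells, stroma, vessels and immune cells together. In such bulk RNA, fewer cells of a type and less RNA per cell cannot be told apart.

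Haem is built in a chain of steps that starts in the mitochondrion, and red cell precursors run this chain through their own first enzyme, ALAS2, to fill haemoglobin. When red cells age or break, macrophages take up haemoglobin and haem, open the haem ring with haem oxygenase, and return the iron to plasma through ferroportin. Cells that need iron take up transferrin through the transferrin receptor, whose mRNA is kept stable by iron regulatory proteins when iron is scarce, while the same proteins hold back ferritin translation. Tumour cells divide fast and use much iron, and tumour macrophages can either hold it or hand it on.

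Each array carried 45037 probe sets after control sets were left out, and array medians lay between 2.73 and 2.96. Values below 3 were treated as background, which took in 51.3% of all values. Alas2 was below 3 on 11 of 18 arrays, Slc4a1 on 15 and Hpx on all 18, and no other member was below 3 on any array. Most epithelial markers did not bear out the label of a colon carcinoma, since Epcam, Krt8, Krt18, Krt19 and Cldn4 (5 of the 6 in the list) were below 3 on all 18 arrays. The remaining marker, Cdh1, was above background, with means of 5.26 in MEKi/CD40, 5.84 in MEKi, 6.41 in anti-CD40 and 6.45 in control tumours. Macrophage markers (10 of 10 measured, none below 3 on all arrays) averaged 10.94 to 12.34 per MEKi/CD40 tumour, 10.54 to 11.37 per MEKi tumour, 11.12 to 11.54 per anti-CD40 tumour and 11.34 to 11.75 per control tumour. Adipocyte markers (9 of 11 measured, none below 3 on all arrays) averaged 4.23 to 11.26 in MEKi/CD40, 3.93 to 5.46 in MEKi, 3.22 to 6.12 in anti-CD40 and 3.48 to 4.24 in control tumours. MEKi/CD40 2 (11.26), MEKi/CD40 4 (7.19) and anti-CD40 3 (6.12) had the most adipocyte signal and are called the 3 fat-rich arrays below, and MEKi/CD40 4 also carried skeletal muscle markers (10 of 10 measured, 1 of them, Myh2, below 3 on all arrays), with a score of 7.69 against 2.52 to 2.90 on the other 17 arrays. Fits without the 3 fat-rich arrays rest on fewer MEKi/CD40 or anti-CD40 tumours. Whether a call lost there goes with fat content or with fewer arrays was not tested. Sample names fall into a low and a high number series. All MEKi/CD40 and anti-CD40 tumours, 2 of 5 MEKi and 2 of 5 control tumours were in the low series. Within it, MEKi/CD40 tumours have numbers near those of the 2 control tumours, and anti-CD40 tumours near those of the 2 MEKi tumours. In other pairs of groups within the low series, treatment and number cannot be told apart. This includes MEKi/CD40 against anti-CD40, whose tumours all lie in that series. The labels do not say what the numbers stand for.

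A gene was called when its adjusted p (limma, Benjamini-Hochberg over all 45037 probe sets) was below 0.05. MEKi/CD40 against control gave 2 members called higher, Alas2 and Slc4a1, beside 5.5% of all probe sets, and 2 called lower, Hba-a2 and Tfrc, beside 9.37%, and these 4 were the members whose groups did not overlap. As this contrast chose the list, nothing is read from those counts. The median difference of the 10 members was 0.17 there, against 0.00 for all probe sets. MEKi against control gave 0 members called higher (3.99% of all probe sets) and 1 called lower, Tfrc (3.83%), with 5 members and 20.9% of probe sets at an unadjusted p below 0.05. Anti-CD40 against control gave 0 members called higher and 0 lower, and the background was 0% in both directions, with 1 member and 5.38% of probe sets at an unadjusted p below 0.05. MEKi/CD40 against anti-CD40, which shares the MEKi/CD40 arrays with the first contrast as all pairs here share arrays with others, gave 2 higher, Alas2 and Slc4a1 (4.42% of all), and 2 lower, Hba-a2 and Tfrc (7.19%). MEKi/CD40 against MEKi gave 0 called higher (0.737%) and 0 lower (1.77%), with 4 members and 16.8% of probe sets at an unadjusted p below 0.05. MEKi against anti-CD40 gave 0 higher (2.83%) and 0 lower (2.26%), with 2 members and 18.5% of probe sets at an unadjusted p below 0.05.

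**Figure D1:**
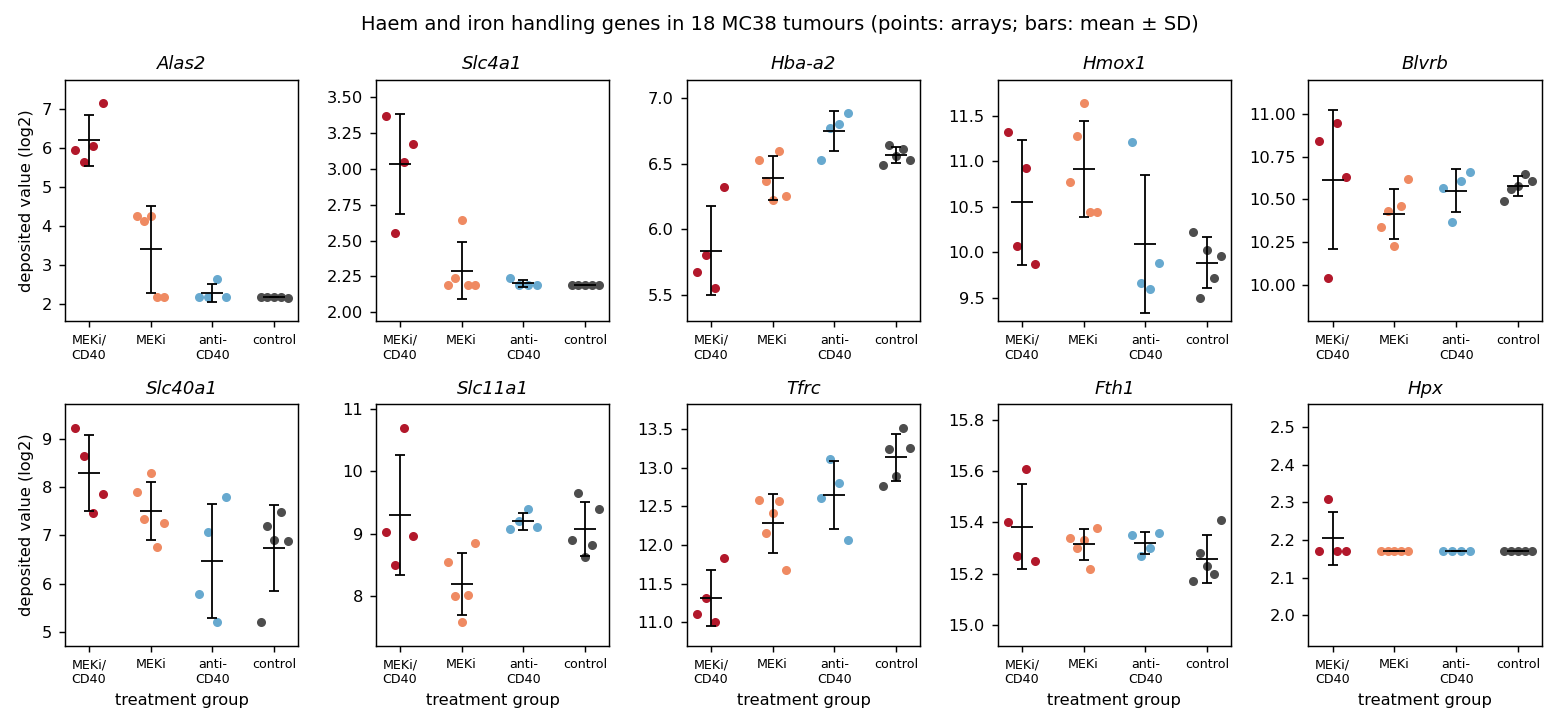
Deposited log2 value (vertical axes) of the 10 genes in each treatment group (horizontal axes), 1 point per tumour, with mean and SD. Alas2 lies between 5.63 and 7.15 in the 4 MEKi/CD40 tumours and between 2.16 and 2.17 in the 5 control tumours, and Tfrc runs the other way, with 11.0 to 11.83 in MEKi/CD40 and 12.76 to 13.52 in control.

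**Figure D2:**
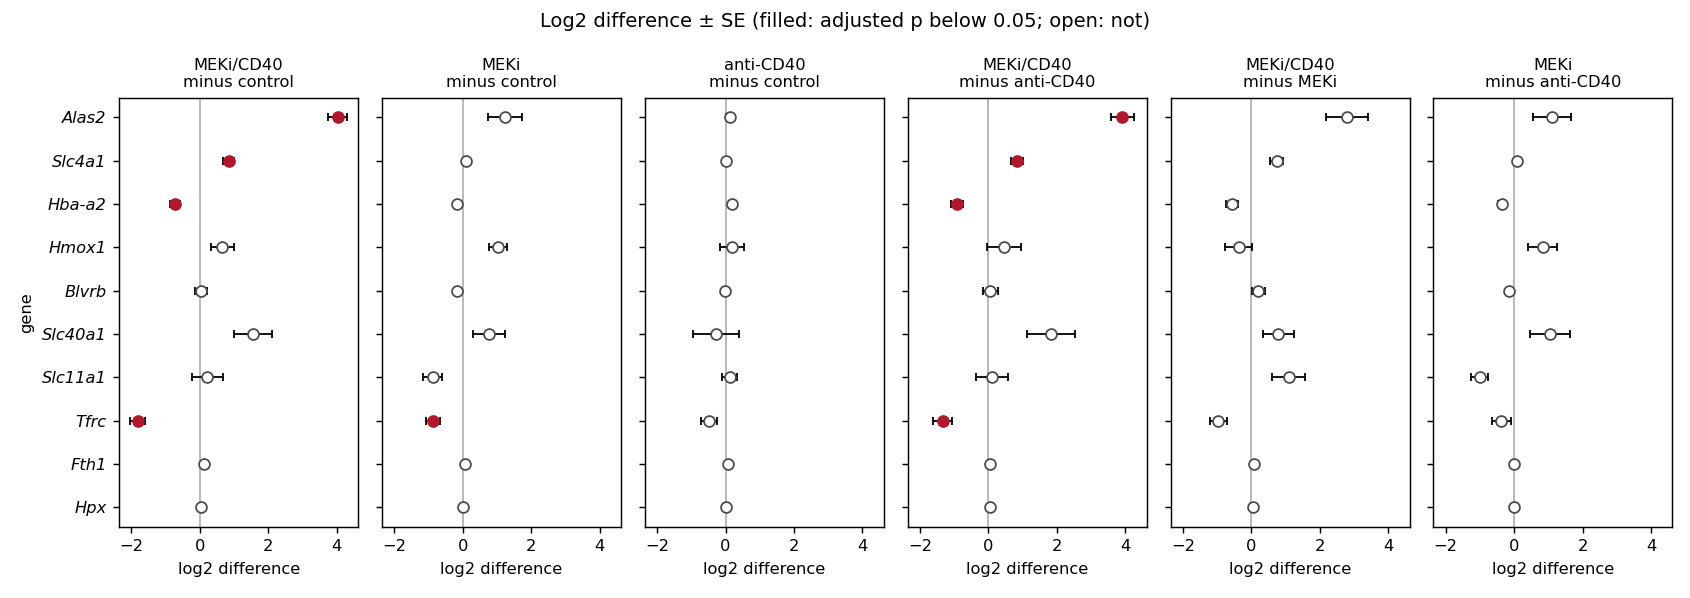
Log2 difference between groups (horizontal axes) for each of the 10 genes (vertical axis), with the model's SE, in 6 comparisons. Filled points passed an adjusted p of 0.05 and open points did not, for example Tfrc at −1.33 (filled) in MEKi/CD40 minus anti-CD40. MEKi/CD40 minus control chose the list, so its filled points are a description only.

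Alas2, which encodes the red cell form of the enzyme that starts haem synthesis, read 5.94, 5.63, 6.06 and 7.15 in the 4 MEKi/CD40 tumours. It read 4.26, 4.13, 4.25, 2.17 and 2.17 in MEKi tumours, 2.17, 2.17, 2.63 and 2.17 in anti-CD40 tumours, and 2.16 to 2.17 in all 5 control tumours. Every MEKi/CD40 tumour stood above every tumour of the other groups, and the MEKi tumours split into 3 above background and 2 at it. The difference between MEKi/CD40 and control was 4.03 ± 0.28 (SE), and since all control values were background, MEKi/CD40 tumours were at least 9.16-fold higher when values below 3 were raised to 3. Against anti-CD40 the difference was 3.91 ± 0.34 (adjusted p = 0.00286), and the call was made without any 1 of the 8 arrays (adjusted p up to 0.0154). Against MEKi it was 2.80 ± 0.62 (adjusted p = 0.065), a miss although the groups did not overlap. MEKi alone stood 1.23 ± 0.49 above control (adjusted p = 0.19). The difference between MEKi/CD40 and control was 4.03 within the low series and 3.83 without the 3 fat-rich arrays. The low-series value could not differ from that over all arrays. All MEKi/CD40 tumours are in that series, and control values were 2.16 to 2.17. MEKi against control was 2.02 within the low series, without a call. In the MEKi group, replicates 1 and 2 (low series) and replicate 3 (high series) were the tumours with signal. The tumours at background, replicates 4 and 5, were both of the high series. The part of the number series in this split was not tested.

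Slc4a1 encodes band 3, the anion exchanger of the red cell membrane. Its probe set read 3.37, 2.55, 3.05 and 3.17 in MEKi/CD40 tumours, 2.19 to 2.64 in MEKi tumours, 2.19 to 2.24 in anti-CD40 tumours and 2.19 in each control tumour, so most values were background. The MEKi/CD40 group was 0.84 ± 0.15 above control and 0.83 ± 0.17 above anti-CD40 (adjusted p = 0.0277). That second call was lost without any 1 of 7 of the 8 arrays and stood without MEKi/CD40 2 alone, whose value was lowest (adjusted p up to 0.0842). Within the low series the difference to control was also 0.84. It could not differ there, since every control tumour read 2.19 and all MEKi/CD40 tumours are in that series. With values below 3 raised to 3, MEKi/CD40 was at least 1.11-fold higher than control and than anti-CD40, and the call against anti-CD40 was lost (0.15, adjusted p = 0.405). A second Slc4a1 set, of the _x_at kind, carried more signal. It read 5.02, 5.64, 4.89 and 5.78 in MEKi/CD40 tumours, 3.43, 4.05, 3.18, 2.95 and 2.94 in MEKi tumours, 2.88 in all 4 anti-CD40 tumours and 2.88 to 3.12 in control tumours. All MEKi/CD40 tumours were above all others on it. MEKi/CD40 exceeded control by 2.40 ± 0.20, anti-CD40 by 2.45 ± 0.22 (adjusted p = 0.00289) and MEKi by 2.02 ± 0.30 (adjusted p = 0.0286), and the last call was lost without MEKi 2, 3, 4 or 5 or MEKi/CD40 1 or 2 (adjusted p up to 0.0752). A further set read 2.16 on every array.

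Hba-a2, an adult alpha-globin gene, gave opposite answers by probe set. Its single-symbol set read 5.67, 5.80, 5.55 and 6.32 in MEKi/CD40 tumours, 6.22 to 6.60 in MEKi tumours, 6.53, 6.77, 6.80 and 6.89 in anti-CD40 tumours, and 6.49 to 6.64 in control tumours. MEKi/CD40 tumours were lower than all control and anti-CD40 tumours, by 0.73 ± 0.15 and 0.91 ± 0.18 (adjusted p = 0.0251 against anti-CD40). Within the low series the difference to control was again −0.73. The anti-CD40 comparison was no longer called once anti-CD40 2, 3 or 4 or MEKi/CD40 1 or 2 was dropped (adjusted p up to 0.0793).

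The annotation gives 3 further sets to both Hba-a1 and Hba-a2, the gene pair that makes alpha-globin, and these moved the other way. The brightest of them read 14.33, 14.33, 14.42 and 14.52 in MEKi/CD40 tumours. It read 14.12, 13.63, 14.00, 12.83 and 11.25 in MEKi tumours, 11.35, 12.33, 13.05 and 12.02 in anti-CD40 tumours, and 11.72, 10.98, 12.44, 11.15 and 12.19 in control tumours. MEKi/CD40 tumours lay in a narrow band (SD 0.09) above every other tumour, while control tumours spread more widely (SD 0.63). The 3 shared sets were 2.70 ± 0.32, 2.72 ± 0.34 and 4.28 ± 0.39 above control in MEKi/CD40, and 2.21, 2.27 and 3.72 above anti-CD40 (adjusted p = 0.0117, 0.012 and 0.00553), calls made without any 1 of the 8 arrays. Without the 3 fat-rich arrays the differences to anti-CD40 were 2.48, 2.59 and 4.03, and none was called (adjusted p = 0.108, 0.105 and 0.0707). Against MEKi the shared sets stood at 1.23, 1.24 and 2.33 (adjusted p = 0.363, 0.389 and 0.195).

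A beta-globin set that the annotation gives to 4 genes followed the shared alpha-globin sets. It read 13.61, 13.56, 13.54 and 13.78 in MEKi/CD40 tumours, 13.28, 12.91, 13.17, 11.79 and 10.17 in MEKi tumours, 10.28, 11.24, 12.05 and 10.87 in anti-CD40 tumours, and 10.64, 9.87, 11.27, 9.92 and 11.07 in control tumours. MEKi 1, 2 and 3, the tumours with an Alas2 signal, were close to the MEKi/CD40 band, and MEKi 5 was within the control range. Anti-CD40 3, a fat-rich array, was highest of its group on this set, and its Alas2 value (2.63) lay in the background range. MEKi/CD40 was 3.07 ± 0.32 above control and 2.51 ± 0.36 above anti-CD40 (adjusted p = 0.00933), and the second was not called without the 3 fat-rich arrays (2.78, adjusted p = 0.0919). Across the 18 arrays the shared globin sets correlated with one another at r = 0.99 to 1.00 and with Alas2 at r = 0.88 to 0.94, and after group means were removed with Alas2 at r = 0.69 to 0.79. The single-symbol Hba-a2 set correlated with them at r = −0.68 to −0.62 over the 18 arrays and 0.13 to 0.20 after group means were removed. These coefficients describe 18 arrays normalized together and carry no test.

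**Figure D3:**
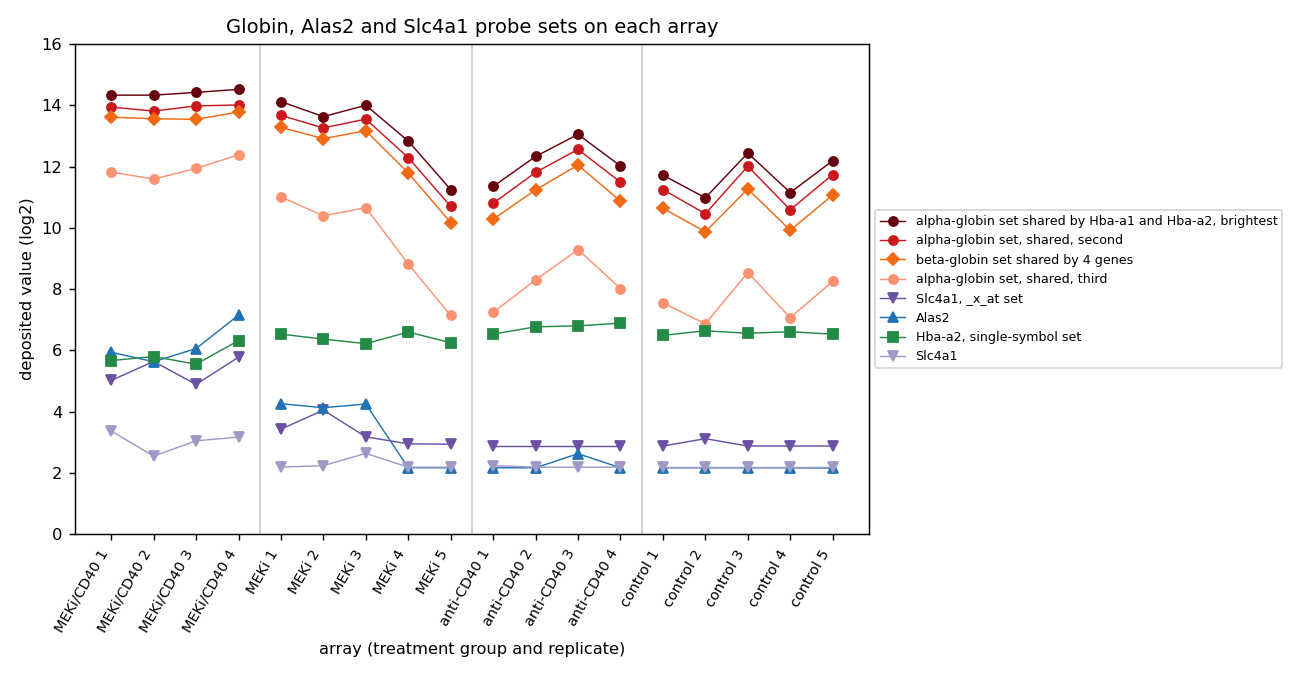
Deposited log2 value (vertical axis) of globin, Alas2 and Slc4a1 probe sets on each of the 18 arrays (horizontal axis), grouped by treatment, with lines joining tumours of a group for reading only. The shared globin sets and Alas2 are high in all MEKi/CD40 tumours and in MEKi 1, 2 and 3, while the single-symbol Hba-a2 set stays between 5.55 and 6.89.

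Upstream sequences are shown for Alas2 and both alpha-globin genes because these genes carry the erythroid signal and are known targets of the red cell factor GATA1. The 200 bases before each start site follow (RefSeq, build GRCm38.p6, plus strand, chrX:150547217-150547416 for Alas2, chr11:32296292-32296491 for Hba-a2 and chr11:32283472-32283671 for Hba-a1), with capitals marking a GATA motif.
Alas2: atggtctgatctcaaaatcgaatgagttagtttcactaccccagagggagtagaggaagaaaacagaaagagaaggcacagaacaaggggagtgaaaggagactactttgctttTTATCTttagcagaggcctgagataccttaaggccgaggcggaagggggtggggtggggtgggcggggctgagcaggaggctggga
Hba-a2: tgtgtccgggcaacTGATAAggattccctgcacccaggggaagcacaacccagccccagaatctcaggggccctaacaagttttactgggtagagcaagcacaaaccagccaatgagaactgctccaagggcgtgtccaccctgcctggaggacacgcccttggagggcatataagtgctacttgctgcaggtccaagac
Hba-a1: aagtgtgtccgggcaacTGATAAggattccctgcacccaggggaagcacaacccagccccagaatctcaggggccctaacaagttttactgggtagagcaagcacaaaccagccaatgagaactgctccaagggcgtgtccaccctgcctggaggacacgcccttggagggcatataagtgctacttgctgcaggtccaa
The letters searched were AGATAA and also AGATAG, and with another first base TGATAA and also TGATAG, on either strand within 250 bases upstream. It starts at −86 in Alas2, where it reads TTATCT, the reverse complement of AGATAA, at −186 in Hba-a2 and at −183 in Hba-a1. Of the 10 members 7 had an upstream window in the reference, with 10 windows in all, and 4 of these 10 held the motif (Alas2, Hba-a2, Hpx and a second start of Blvrb), against 26.5% of all 32851 windows. The motif CCACACCC, read on both strands, was in none of the 10 and in 3.2% of all windows.

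Other erythroid genes were mostly silent. Of 24 listed, 17 had a single-symbol set, and 13 of these were below 3 on all 18 arrays, among them the red cell transcription factors Klf1 and Gata1, the erythropoietin receptor Epor and the single-symbol set of Hba-a1. In MEKi/CD40 against control 2 of 17 rose and 0 fell, with a list median of 0.00. Of all probe sets 5.5% were called higher and 9.37% lower there, which also stands beside the list counts below. Hbb-b2, a beta-globin gene, read 5.94, 6.37, 5.69 and 6.11 in MEKi/CD40 tumours and 4.75 to 5.12 in control tumours. The difference was 0.98 ± 0.15 (adjusted p = 0.00535). The value 5.12 recurred in most control and anti-CD40 tumours and in MEKi 4 and 5. Such tied values may be background of this probe set, which was not tested. Bpgm, which makes the allosteric regulator 2,3-bisphosphoglycerate, averaged 9.75 ± 0.34 in MEKi/CD40 and 8.70 ± 0.21 in control tumours (SD), a difference of 1.06 ± 0.18 (adjusted p = 0.00863) that was not called without the 3 fat-rich arrays (0.83, adjusted p = 0.0813). Within the low series alone none of the 20 genes of all lists called in this comparison was called. Bpgm also rose in MEKi against control (0.82 ± 0.19, adjusted p = 0.0351), no longer called after dropping control 1, 2, 3 or 5 or MEKi 1, 2 or 3 (adjusted p up to 0.0869). Both genes rose against anti-CD40 as well, Hbb-b2 by 0.85 and Bpgm by 1.10 (adjusted p = 0.0167 and 0.0209). Those calls were lost without any of 3 arrays for Hbb-b2 (anti-CD40 1, 2 and 4, adjusted p up to 0.0585) and of 5 for Bpgm (anti-CD40 2 and 3, MEKi/CD40 1, 2 and 4, adjusted p up to 0.0669). In MEKi/CD40 against MEKi 0 of 17 were called, beside 0.737% of all probe sets higher and 1.77% lower. Hbb-b2 had the smallest p there (0.56, adjusted p = 0.315). In MEKi against anti-CD40 0 of 17 were called, beside 2.83% of all probe sets higher and 2.26% lower. Bpgm had the smallest p in that comparison (0.86, adjusted p = 0.0635).

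The haem synthesis chain itself did not follow Alas2. Of 10 measured enzymes and carriers (11 listed), 0 rose and 3 fell in MEKi/CD40 against control, with a list median of −0.13. Among all probe sets 5.5% were called higher and 9.37% lower. Slc25a38, the mitochondrial glycine carrier that feeds ALAS2, fell by 0.52 ± 0.11 (adjusted p = 0.0175). It read 6.21, 5.94, 6.26 and 6.50 in MEKi/CD40 tumours and 6.67 to 6.85 in control tumours. Tmem14c, a porphyrin carrier, fell by 0.20 ± 0.03 (adjusted p = 0.00317), and Alad, the second enzyme of the chain, by 0.24 ± 0.05 (adjusted p = 0.0244). Alad lost its call without control 1 or 4 or MEKi/CD40 1, 2 or 4 (adjusted p up to 0.0696), and Slc25a38 without MEKi/CD40 1 (adjusted p = 0.0513). In MEKi against control Fech, which inserts iron to finish haem, rose by 0.26 ± 0.06 (adjusted p = 0.0346), with values of 10.79 to 11.02 in MEKi and 10.50 to 10.75 in control tumours. It lost its call without any 1 of 8 of the 10 arrays, all but control 4 and MEKi 4 (adjusted p up to 0.0802). Slc25a38 was also lower against anti-CD40 (−0.58, adjusted p = 0.0324), no longer called after dropping any anti-CD40 tumour or MEKi/CD40 1 or 3 (adjusted p up to 0.0928).

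Hmox1, the inducible haem oxygenase, was higher in both groups given the inhibitor, without a call. It read 11.32, 10.07, 10.93 and 9.87 in MEKi/CD40 tumours, 10.77, 11.28, 11.64, 10.44 and 10.44 in MEKi tumours, 11.21, 9.66, 9.60 and 9.88 in anti-CD40 tumours, and 10.22, 9.50, 10.02, 9.72 and 9.96 in control tumours. All 5 MEKi tumours stood above all control tumours, whereas the MEKi/CD40 and anti-CD40 groups each overlapped the control group. MEKi against control differed by 1.03 ± 0.26 (2.04-fold, adjusted p = 0.0507) and passed the threshold without MEKi 4 (adjusted p = 0.0461). MEKi/CD40 was 0.66 ± 0.33 above control and 1.24 above it without MEKi/CD40 2 and 4, 2 of the fat-rich arrays, which had the lowest Hmox1 values of the group. In the low number series alone the MEKi difference was 1.16, without a call. Blvrb, a biliverdin reductase abundant in red cells, averaged 10.62 ± 0.41 in MEKi/CD40, 10.42 ± 0.15 in MEKi, 10.55 ± 0.13 in anti-CD40 and 10.58 ± 0.06 in control tumours (SD). It stood at 0.04 ± 0.18 in MEKi/CD40 against control, and at −0.16 ± 0.07 in MEKi against control (adjusted p = 0.221). MEKi/CD40 2, the tumour with the most adipocyte signal, had the lowest Blvrb value of all 18 (10.04), and without the fat-rich arrays Blvrb stood 0.32 above control in MEKi/CD40. Hpx, the plasma haem carrier haemopexin made mainly by liver, read 2.17 on 17 arrays and 2.31 in MEKi/CD40 2, so no level was measured. Hepatocyte markers were likewise near background (6 of 7 measured below 3 on all arrays), with scores of 2.17 to 3.67 in MEKi/CD40 and 2.17 to 2.20 in control tumours.

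Of 13 genes for haem capture, transport and breakdown 5 rose and 1 fell in MEKi/CD40 against control, with a list median of 0.07, and 2 of the 13 were below 3 on all arrays. Cd163, the haemoglobin and haptoglobin scavenger receptor of macrophages, read 5.06, 7.32, 8.97 and 7.73 in MEKi/CD40 tumours, 2.16, 3.13, 2.24, 2.34 and 2.26 in MEKi tumours, 2.16 to 2.24 in anti-CD40 tumours and 2.16 to 2.24 in control tumours. It had signal in every MEKi/CD40 tumour and little or none elsewhere (5.07 ± 0.70 against control, adjusted p = 0.004, and 5.09 against anti-CD40, adjusted p = 0.0116). Against MEKi the difference was 4.84 (adjusted p = 0.0291), and this call was lost without any 1 MEKi tumour or MEKi/CD40 2 or 4 (adjusted p up to 0.0782). Lrp1, the receptor for haem bound to haemopexin, read 11.51, 11.24, 11.87 and 11.27 in MEKi/CD40 tumours and 10.08 to 10.59 in control tumours, a difference of 1.19 ± 0.16 (adjusted p = 0.00341). Slc48a1, which moves haem out of the lysosome, was 1.28 ± 0.20 above control in MEKi/CD40 (adjusted p = 0.00613) and 0.94 ± 0.14 in MEKi (adjusted p = 0.00968). Its values were 9.52 to 10.23 in MEKi/CD40, 9.31 to 9.72 in MEKi, 8.57 to 9.17 in anti-CD40 and 8.37 to 8.88 in control tumours, so the inhibitor groups lay above the groups without it. Both of these calls were made without any 1 array of their comparison.

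Haptoglobin moved with fat markers. Hp read 8.24, 14.12, 11.61 and 11.63 in MEKi/CD40 tumours, 7.32, 9.82, 6.05, 10.46 and 10.17 in MEKi tumours, 3.96, 7.60, 11.49 and 3.15 in anti-CD40 tumours, and 7.16, 4.32, 3.91, 4.27 and 2.93 in control tumours. MEKi/CD40 2 and anti-CD40 3, which led their groups for Hp, also led them in the adipocyte score. The rise against control was 6.88 ± 1.30 (adjusted p = 0.0127), and it was 5.41 and no longer called without the 3 fat-rich arrays (adjusted p = 0.0946). Cd163 was likewise not called without those arrays (4.81, adjusted p = 0.0519), while Lrp1 (1.41, adjusted p = 0.014) and Slc48a1 (1.60, adjusted p = 0.0107) were. The highest Cd163 value lay in MEKi/CD40 3, the tumour with the highest macrophage score (12.34). Pgrmc1, a haem-binding membrane protein, rose by 0.65 ± 0.15 in MEKi/CD40 and 0.53 ± 0.11 in MEKi against control (adjusted p = 0.0258 and 0.0286). Hmox2, the constitutive haem oxygenase, fell by 0.38 ± 0.07 in MEKi/CD40 (adjusted p = 0.0145). The Pgrmc1 calls were lost without control 1, 2, 3 or 4 or replicate 1 or 2 of the treated group (adjusted p up to 0.0693 in MEKi/CD40 and 0.0722 in MEKi). Against anti-CD40, Lrp1 (1.52, adjusted p = 0.00527) and Slc48a1 (1.05, adjusted p = 0.0346) also rose in MEKi/CD40, and Lrp1 rose against MEKi (0.89, adjusted p = 0.0407). Without the 3 fat-rich arrays neither was called against anti-CD40 (Lrp1 adjusted p = 0.0518, Slc48a1 0.13), nor were 12 of the 13 list genes, over all lists, that were called in that comparison. In MEKi against anti-CD40, Lrp1 rose by 0.63 (adjusted p = 0.0449) and the haem exporter Flvcr1 fell by 0.41 (adjusted p = 0.0302). The Lrp1 and Flvcr1 calls of MEKi against anti-CD40, that of Slc48a1 against anti-CD40 and that of Lrp1 against MEKi were lost without any 1 of at least 6 arrays.

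Tfrc, the transferrin receptor, was lowest in MEKi/CD40 tumours. It read 11.11, 11.32, 11.0 and 11.83 there, 12.59, 12.15, 12.42, 12.57 and 11.68 in MEKi tumours, 12.61, 13.11, 12.80 and 12.07 in anti-CD40 tumours, and 12.76, 13.25, 12.90, 13.52 and 13.26 in control tumours. No tumour given the inhibitor reached the control range, and MEKi/CD40 overlapped MEKi through MEKi 5. MEKi/CD40 stood 1.82 ± 0.22 below control (3.54-fold lower). It was 1.69 below within the low series and 2.08 below without the 3 fat-rich arrays. MEKi fell 0.86 ± 0.21 below control (adjusted p = 0.0473), but without any 1 of the 10 arrays this call was lost (adjusted p between 0.0539 and 0.102), and within the low series the difference was −0.64. MEKi/CD40 fell 1.33 ± 0.28 below anti-CD40 (adjusted p = 0.0296), no longer called after dropping anti-CD40 1, 2 or 3 or MEKi/CD40 1, 2 or 3 (adjusted p up to 0.0914). Against MEKi the difference was −0.97 ± 0.25 (adjusted p = 0.0899), and anti-CD40 stood at −0.49 ± 0.24 against control (adjusted p = 0.927).

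A second Tfrc set averaged 4.40 ± 0.33 in MEKi/CD40, 6.18 ± 0.53 in MEKi, 6.92 ± 0.53 in anti-CD40 and 7.38 ± 0.34 in control tumours (SD). Its MEKi/CD40 values (4.13 to 4.86) lay below those of every other tumour (5.34 to 7.88). MEKi/CD40 was 2.98 ± 0.22 below control (7.88-fold lower), 2.52 ± 0.30 below anti-CD40 (adjusted p = 0.0056) and 1.78 ± 0.30 below MEKi (adjusted p = 0.0352), and MEKi was 1.20 ± 0.27 below control (adjusted p = 0.0361). The last of these was lost without any control tumour or MEKi 1 or 2 (adjusted p up to 0.082), and that against MEKi without any MEKi tumour or MEKi/CD40 1, 2 or 3 (adjusted p up to 0.0938). The 3′ control set for this transcript, which the array carries as a check on RNA quality and which was left out of all tests, averaged 5.01 ± 0.43 in MEKi/CD40, 6.38 ± 0.42 in MEKi, 7.10 ± 0.25 in anti-CD40 and 7.52 ± 0.30 in control tumours. Its middle and 5′ companions were near background, at 2.72 and 2.43 in MEKi/CD40 and 3.63 and 2.82 in control, so no 3′ to 5′ comparison could be made. A further set was also close to background, with means of 2.50 in MEKi/CD40, 3.02 in MEKi, 2.96 in anti-CD40 and 3.50 in control.

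**Figure D4:**
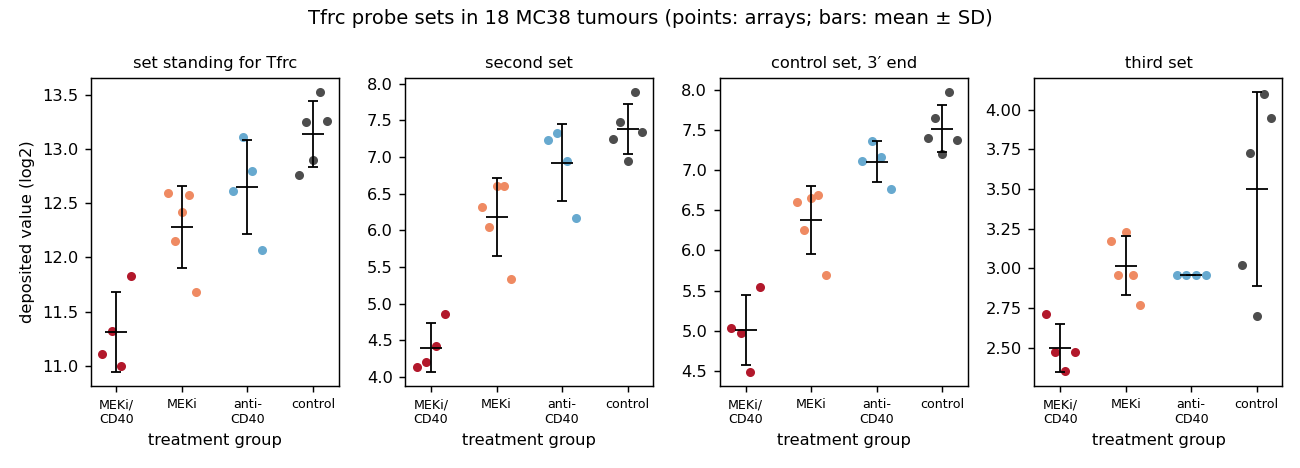
Deposited log2 value (vertical axes) of 4 Tfrc probe sets in each treatment group (horizontal axes), 1 point per tumour, with mean and SD. On the set that stands for Tfrc and on the second set every MEKi/CD40 tumour lies below every control tumour, with means of 11.32 against 13.14 and 4.40 against 7.38.

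Slc40a1, which encodes ferroportin, the iron exporter, had a higher mean in the inhibitor groups and wide spread. It read 9.23, 8.64, 7.46 and 7.85 in MEKi/CD40 tumours, 7.90, 7.34, 8.29, 6.76 and 7.25 in MEKi tumours, 5.78, 7.08, 5.2 and 7.79 in anti-CD40 tumours, and 5.21, 7.20, 6.90, 7.49 and 6.89 in control tumours. All groups overlapped. MEKi/CD40 was 1.56 ± 0.56 above control and 1.83 ± 0.69 above anti-CD40 (adjusted p = 0.171), and MEKi was 0.77 ± 0.47 above control (adjusted p = 0.454). A second set for it gave 1.77 ± 0.70 and 1.57 ± 0.91 for the first 2 of these (adjusted p = 0.415 against anti-CD40). Slc11a1, the iron and manganese pump of the macrophage phagosome also known as NRAMP1, averaged 9.30 ± 0.96 in MEKi/CD40, 8.20 ± 0.50 in MEKi, 9.20 ± 0.14 in anti-CD40 and 9.08 ± 0.43 in control tumours (SD). MEKi stood at −0.88 ± 0.29 against control (adjusted p = 0.108) and at −1.0 ± 0.25 against anti-CD40 (adjusted p = 0.0699), and the second was called without MEKi 5 (adjusted p = 0.042). The MEKi group also had the lowest mean macrophage score (10.90, against 11.40 in MEKi/CD40, 11.40 in anti-CD40 and 11.56 in control), and MEKi/CD40 3 led all arrays both in that score and in Slc11a1 (10.70). The part of macrophage content in these values was not tested. Fth1, the ferritin heavy chain, was flat, with 15.25 to 15.61 in MEKi/CD40, 15.22 to 15.38 in MEKi, 15.27 to 15.36 in anti-CD40 and 15.17 to 15.41 in control tumours. Its differences ran from −0.01 ± 0.03 in MEKi against anti-CD40 to 0.12 ± 0.08 in MEKi/CD40 against control, and a second set gave −0.03 to 0.07 in the same 6 comparisons.

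Around these carriers other genes were called about as often as all probe sets in MEKi/CD40 against control. Of 22 measured genes for iron uptake, export and storage (24 listed, 4 below 3 on all arrays), 1 rose and 2 fell there, with a list median of 0.12. Among all probe sets 5.5% were called higher and 9.37% lower. Steap4, a metalloreductase induced in inflammation, read 10.30, 11.47, 11.04 and 9.86 in MEKi/CD40 tumours, 8.27 to 9.29 in MEKi, 6.95 to 7.92 in anti-CD40 and 6.27 to 8.68 in control tumours. It rose by 3.43 ± 0.56 against control (adjusted p = 0.00735) and 3.26 ± 0.41 against anti-CD40 (adjusted p = 0.00647), and all MEKi/CD40 tumours were above all others. Neither was called without the 3 fat-rich arrays (3.43 against control, adjusted p = 0.0505, and 3.17 against anti-CD40, adjusted p = 0.104). The difference to control was as large as with all arrays, and the fit lacked MEKi/CD40 2 and 4. Pcbp1 and Pcbp2, chaperones that deliver iron to ferritin, fell by 0.22 ± 0.04 and 0.27 ± 0.04 (adjusted p = 0.0121 and 0.00655). Both also fell against anti-CD40 (−0.22 each, adjusted p = 0.00311 and 0.03), where the ferroxidase ceruloplasmin Cp rose (1.10, adjusted p = 0.0412), and Pcbp1 fell against MEKi (−0.17, adjusted p = 0.0263). Of these the Pcbp1 call against anti-CD40 was made without any 1 of the 8 arrays, and the others were lost without any 1 of at least 6 arrays. In MEKi against control 0 of 22 were called (Steap4, at 1.63 ± 0.45, had the smallest p, adjusted p = 0.0636). In MEKi against anti-CD40 4 rose: Slc39a14 (0.49, adjusted p = 0.0263), Steap4 (1.46, adjusted p = 0.0329), Cp (1.03, adjusted p = 0.0432) and Slc11a2, the gut and endosomal iron carrier DMT1 (0.28, adjusted p = 0.0439). All 4 lost the call without any 1 of at least 6 of the 9 arrays (adjusted p up to 0.125). Of all probe sets 2.83% were called higher and 2.26% lower in MEKi against anti-CD40. In MEKi against control these shares were 3.99% and 3.83%.

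Among 13 measured genes for iron sensing and the hepcidin pathway (14 listed, 4 below 3 on all arrays), 4 rose and 1 fell in MEKi/CD40 against control, with a list median of 0.04. Epas1, which encodes HIF-2alpha, averaged 10.72 ± 0.58 in MEKi/CD40, 9.58 ± 0.17 in MEKi and 9.14 ± 0.18 in control tumours (SD), a difference of 1.58 ± 0.26 for MEKi/CD40 (adjusted p = 0.00807). Bmp2, a ligand that drives hepcidin in liver, was 1.68 ± 0.33 above control in MEKi/CD40 (adjusted p = 0.0151) and 1.37 ± 0.28 in MEKi (adjusted p = 0.0252). Hif1a rose by 0.44 ± 0.07 (adjusted p = 0.00772), and Smad7, an inhibitor of BMP signalling, fell by 0.76 ± 0.15 (adjusted p = 0.014). Fbxl5, the iron-sensing subunit that marks IRP2 for breakdown, rose by 0.67 ± 0.15 in MEKi/CD40 (adjusted p = 0.0233) and by 0.34 ± 0.06 in MEKi (adjusted p = 0.0173). Fbxl5 in MEKi was called without any 1 of the 10 arrays, and in MEKi/CD40 it was no longer called after dropping control 1, 2 or 4 or MEKi/CD40 1 (adjusted p up to 0.0668). Bmp2 in MEKi lost its call without control 2 or 3 or MEKi 1, 2, 3 or 5 (adjusted p up to 0.0618). Epas1 in MEKi (0.43 ± 0.11, adjusted p = 0.0492) lost it without any 1 of 9 of the 10 arrays (adjusted p up to 0.107). Of 10 measured NRF2 targets, the stress programme to which Hmox1 belongs, 0 rose and 1 fell in MEKi/CD40: Gsr, glutathione reductase, at −0.78 ± 0.19 (adjusted p = 0.0325), no longer called after dropping any 1 of 7 of the 9 arrays (adjusted p up to 0.0921). In MEKi against control 0 of the 10 were called, beside 3.99% of all probe sets higher and 3.83% lower. Gclm had the smallest p there, at 0.32 ± 0.12 (adjusted p = 0.162). Against anti-CD40, Epas1 (1.49, adjusted p = 0.0308) and Hif1a (0.35, adjusted p = 0.0434) rose and Gsr (−0.80, adjusted p = 0.0399) fell in MEKi/CD40, all no longer called once any anti-CD40 tumour was dropped.

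**Figure D5:**
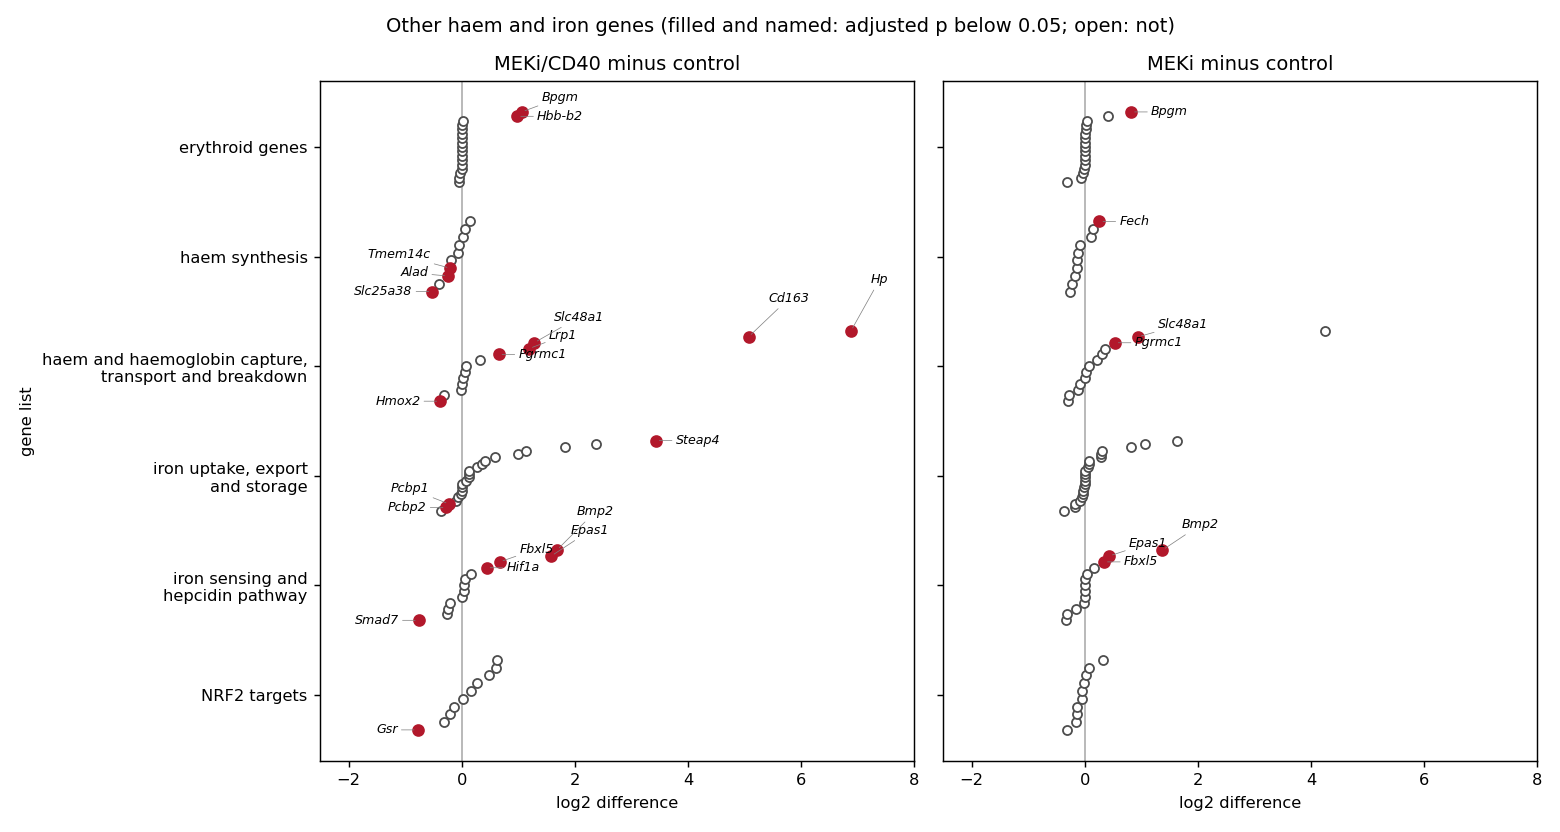
Log2 difference (horizontal axes) of the measured genes of 6 fixed lists (vertical axis) in MEKi/CD40 minus control and in MEKi minus control. Filled, named points passed an adjusted p of 0.05, such as Cd163 at 5.07 in MEKi/CD40, and open points did not.

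The 2 by 2 layout allows a test of whether MEKi/CD40 departed from adding up MEKi and anti-CD40 alone, as log2 differences. The test uses the MEKi/CD40 and control arrays whose difference chose the members, so its calls are not independent of that choice. The interaction was called for 2 members upward, beside 1.06% of all probe sets, and for 1 downward, beside 1.58%. It was 2.68 ± 0.64 for Alas2 (adjusted p = 0.0406), 0.73 ± 0.18 for Slc4a1 (adjusted p = 0.0466) and −0.74 ± 0.18 for Hba-a2 (adjusted p = 0.0476). Each call was lost in most runs without 1 array, namely 14, 16 and 15 of 18 (adjusted p up to 0.0771, 0.0885 and 0.0924), and kept without MEKi/CD40 2 for Alas2 and Slc4a1. Without the 3 fat-rich arrays Alas2 gave 2.60 and no call (adjusted p = 0.0987), and within the low series none of the 3 was called. The _x_at set of Slc4a1 gave 2.07 ± 0.30 (adjusted p = 0.00495), called without any 1 of the 18 arrays and likewise not within the low series. The 3 shared alpha-globin sets, brightest first, gave 0.74 ± 0.74, 0.79 ± 0.78 and 1.77 ± 0.97 (adjusted p = 0.731, 0.728 and 0.453). All lay in the opposite direction to the single-symbol set. Tfrc stood at −0.48 ± 0.35 (adjusted p = 0.642) and Hmox1 at −0.57 ± 0.54 (adjusted p = 0.702). In the capture list Cd163 (4.87 ± 0.73, adjusted p = 0.00578) and Lrp1 (1.22 ± 0.21, adjusted p = 0.0108) had a positive interaction, each called without any 1 of the 18 arrays and not within the low series. Most Alas2, Slc4a1 and Cd163 values outside MEKi/CD40 were background, so the single effects of these genes are not known below it.

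The members did not move as a block. Over the 18 arrays Tfrc correlated with Hba-a2 at r = 0.81 and with Alas2 at r = −0.75, and these fell to 0.52 and turned to 0.37 once group means were removed. Slc11a1 correlated with Blvrb at r = 0.68 (0.62 without group means) and with Fth1 at r = 0.56 (0.76). Among 9224 bright genes, those whose pattern over the 18 arrays was most like a member's were Adamts5 (r = 0.928), Col5a1 (0.924) and Nbl1 (0.923) for Alas2, and Gdi2 (0.934), Srebf2 (0.907) and Slc5a3 (0.893) for Tfrc. For Slc11a1 they were Cybb (0.963), Pstpip1 (0.962) and Itgb2 (0.959), all known from leukocytes. Fxyd5 (0.943) was most like Fth1, Cdk16 (0.933) most like Slc40a1, Frg1 (0.936) most like Hba-a2, Arfgap1 (0.922) most like Slc4a1, H13 (0.797) most like Blvrb and Rusc2 (0.843) most like Hmox1. For Hpx, Pnpla2 (0.966) led, which follows from the 1 raised value in MEKi/CD40 2.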

How the data were processed

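RNA from pieces of 18 tumours, each from its own mouse, was hybridized to 18 Affymetrix 3′ expression arrays of the mouse genome. The authors deposited log2 values, 1 per probe set and array, and name RMA, with a version not given in the sources read. The values run from 2.16 to 16.34 with 34.4% at the lowest value, so low genes have no measured level and their log2 differences understate or misstate change. No counts or depth exist for arrays, and the number of arrays limits the precision. Of 45101 probe sets 64 control sets were left out and 45037 tested without a filter or further normalization. Symbols came from GEO's platform annotation (34945 sets with 1 symbol, 932 with several, 9160 with none). Of 18193 genes 18032 matched GRCm38.p6, with 0 symbols changed.

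Each pair of groups was fitted on its own with limma 3.58.1 in R 4.3.3 (lmFit and eBayes, 6 to 8 residual degrees of freedom) and the interaction on all 18 arrays (14). P-values were adjusted by Benjamini-Hochberg over all tested sets, and a set was called below 0.05. SE is the model's, and SD is over tumours. The procedure was tested on simulated data. The members and gene lists were chosen with earlier results of these data known. Named are all members, the called list genes in order of p up to 4 per list and comparison (a few further called genes were named after their values were seen), the gene with the smallest p in some comparisons where none was called, and per member up to 3 genes of highest Pearson r among genes at 6 or more on at least 9 of 18 arrays. Alternatives were another choice of probe set, cyclic loess, values below 3 raised to 3, a filter (6 or more on at least 4 arrays, 17421 sets), 1 fit over all arrays, a replicate block, the number series, and leaving out arrays.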

Additional observations from a re-analysis of the deposited data

Results flagged for a closer look

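Among 36 gene and group combinations with any spread, 6 held a tumour far from the rest of its group by Dixon's test. The test's nominal rate of about 1 of 20 groups does not hold where values are tied at background. The count of 6 is therefore not set against that rate. Slc40a1 read 5.21 in control 1, against 6.89 to 7.49 in the other control tumours. The other 5 lay in the background range: Alas2 in anti-CD40 3 (2.63, against 2.17 in the others) and in control 5 (2.16, against 2.17), Slc4a1 in MEKi 3 (2.64, against 2.19 to 2.24) and in anti-CD40 1 (2.24, against 2.19), and Hpx in MEKi/CD40 2 (2.31, against 2.17).

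The interaction test of limma called 3 members: Alas2 (2.68, adjusted p = 0.0406), Slc4a1 (0.73, adjusted p = 0.0466) and Hba-a2 (-0.74, adjusted p = 0.0476). Of all probe sets 1.06% were called upward and 1.58% downward. The test uses arrays whose difference chose the members, so these calls are not independent of that choice. They were kept in 4, 2 and 3 of 18 runs without 1 array. Alas2 and Slc4a1 lay at background in control and anti-CD40 tumours. None of the 3 shared alpha-globin sets had a called interaction (0.74, 0.79 and 1.77, adjusted p = 0.731, 0.728 and 0.453).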

How the results depend on the processing

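In MEKi/CD40 against control 4 members were called, and 1 with a replicate block, 2 with the number series as a term and 1 in the low series alone. This contrast chose the list, so nothing is read from these counts. In MEKi against control 1 was called, and 2 with the mean of all single-symbol sets, 3 with dim sets left out, and 0 with values below 3 raised to 3, a replicate block, the number series as a term or the low series alone. The whole table gave 3525 of 45037 probe sets there and 2707 of 18193 genes with the mean of sets. With dim sets left out it gave 5866 of 17421 sets. In MEKi/CD40 against anti-CD40 4 were called, and 1 with a replicate block and 1 without the 3 fat-rich arrays. Of all 45037 probe sets 5231 were called there, 1276 with the replicate block and 407 without those arrays. In MEKi/CD40 against MEKi 0 were called, and 2 with the mean of sets, 1 with _x_at sets allowed, 1 with values raised to 3, 2 with dim sets left out and 4 in 1 fit over all 18 arrays. The whole table gave 1127 of 45037 there and 951 with values raised to 3. It gave 718 of 18193 genes with the mean of sets, 2891 of 17421 with dim sets left out and 4286 in the 1 fit. In MEKi against anti-CD40 0 were called, and 1 with the mean of sets and 2 with dim sets left out. All tested sets gave 2292 of 45037, 1865 of 18193 with the mean of sets and 4879 of 17421 with dim sets left out. The interaction was called for 3, and for 1 with values raised to 3, with dim sets left out, with a replicate block or with the number series as a term, and for 0 in the low series alone. Beside these stood 1191 of 45037 probe sets, 1037 with values raised to 3 and 1746 of 17421 with dim sets left out. The replicate block gave 707, the series term 932 and the low series alone 56. Anti-CD40 against control gave 0 under every alternative. Without 1 array each, counts ran from 3 to 4, 0 to 1, 1 to 3, 0 to 1, 0 to 1 and 0 to 3 in the order above, and stayed at 0 for anti-CD40 against control. With dim sets left out Alas2 and Slc4a1 were not tested.

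With a shared alpha-globin set standing for Hba-a2, an alternative chosen after seeing the data, the Hba-a2 difference reversed to 2.70 in MEKi/CD40 against control, 2.21 in MEKi/CD40 against anti-CD40 and 0.74 in the interaction. The cause was not tested. The 12 called member differences kept their direction under every other alternative. They kept the call in 139 of 246 runs and lost it in 104.

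The whole table moved too. MEKi/CD40 against control called 6698 probe sets, 3860 with the number series as a term, 710 in the low series alone and 3439 without the 3 fat-rich arrays, and MEKi against control called 3525, or 46 in the low series alone. The replicate block gave 113 and 0 probe sets in these comparisons. Of 20 list genes called in MEKi/CD40 against control, 15 were called without each array in turn, 12 were not called without the 3 fat-rich arrays, 20 not in the low series alone and 20 not with the replicate block, which ties tumours that share only a number: deviations from group means correlated at −0.3 to 0.231 over 25 same-numbered pairs and exceeded 0.1 in 5. Low signal limits Hpx on every array and Alas2, Slc4a1 and Cd163 outside MEKi/CD40. Tied values of 5.12 may also limit Hbb-b2 outside MEKi/CD40.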
